A study of Mus musculus with 15 samples.

Results

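Mouse fibroblasts given TGFß1, a secreted protein known for driving fibroblasts towards matrix production and contraction, were compared with untreated cells of the same line. The 6 arrays were taken by their labels, 3 with TGFß1 and 3 controls, out of 15 arrays in all. The cells were MEFs (mouse embryonic fibroblasts, named 3T3 in the labels), which the study's methods give as a single established Balb/c line, clone A31, grown in DMEM Glutamax with fetal calf serum, penicillin and streptomycin. The treated cells received recombinant TGFß1 at 5 ng/ml and the controls no cytokine. The labels name 24 or 72 h of culture for all samples alike, and the study describes the arrays after the shorter time. The other 9 arrays held the same cells with IL-6 at 20 ng/ml together with sIL-6Rα at 25 ng/ml, TNFα at 10 ng/ml, or IL-1β at 1 ng/ml, and they entered the fit and a few direct comparisons. One line limits the model: what is measured holds for this clone, and the cells of an array cannot be told apart, so that fewer cells of a kind and less RNA per cell give the same reading.

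Total RNA was labelled with Cy3 and hybridised to a one-color array of 56605 distinct probes, read as spot intensity. Levels are given as log2 intensity minus the 75th percentile of the array, so a level of 0 is that percentile and an increase of 1 is a doubling. Intensity is not proportional to RNA in the same way for each probe, so levels are compared between arrays and not between genes. Values by array are written for controls 1, 6 and 11 and then for TGFß1 2, 7 and 12, the numbers being those that open the labels. A fold-change is the difference of TGFß1 and control on the log2 scale from a linear model with the slide as a block, given ± its standard error (SE) with 3 arrays in each group. A gene was called, and is said to have risen or fallen, when it moved by at least 1.5-fold either way and its q-value (Benjamini-Hochberg adjusted p, limma, two-sided) was below 0.05. The labels do not say that the 3 arrays of a group came from separate cultures, while the study describes 3 independent experiments. The SE and p-values measure the spread between arrays of the same group, pooled over the whole fit, the arrays with other cytokines included.

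TGFß1 signals through a pair of serine/threonine kinase receptors that phosphorylate SMAD2 and SMAD3, which join SMAD4 and bind DNA. The same cells can respond to the related BMPs through SMAD1, SMAD5 and SMAD9, with the *Id* genes as their usual readout. Feedback comes from the inhibitory SMAD6 and SMAD7 and from the corepressors SKI and SKIL. In fibroblasts the pathway is known for matrix genes, integrins and actin-based contraction, and in immune settings for dampening inflammation.

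Of 13153 genes tested, 1495 rose (11.4%) and 1571 fell (11.9%) with TGFß1, and the median log2 fold-change over all of them was 0.07. These percentages are the background for each list below, each list being a set of textbook pathway or family members. With the 75th percentile taken over the probes detected on all arrays, the split over probes moved from 2875 higher (10.2%) and 2919 lower (10.4%) to 2083 and 3645. The 3 TGFß1 arrays lay above all 3 controls for 24.3% of the genes and below all of them for 21.4%. A fold-change of at least 4 was reached by 194 of the risen and 257 of the fallen genes. For 55 risen genes no control array, and for 106 fallen genes no TGFß1 array, was well above background, and for these a lower bound of the fold is given. Control 6 is the only control on the second of the 2 slides, next to TGFß1 2 and 12, and it often lay apart from controls 1 and 11. Without it 1861 probes in place of 2875 were called higher and 2100 in place of 2919 lower, with 1650 and 1952 of them shared, and its part in the results was not tested. Counts without control 6 are therefore given for lists with at least 4 calls in a direction where they differ by more than 1.5 times, and counts of fewer calls also moved in some lists. In a second alternative the runs of label numbers 1 to 5, 6 to 10 and 11 to 15 were a block beside the slide, and its counts are given beside the lists where they moved most. The cells carried the markers of their label: all 15 fibroblast markers tested were well above background on all 6 arrays, while *Ptprc*, *Adgre1* and *Lyz2* of leukocytes, *Cdh5* and *Kdr* of endothelial cells, *Cdh1* of epithelial cells and *Myod1*, *Myog* and *Des* of skeletal muscle were above background on none. In all, 6 of 12 leukocyte, 9 of 10 endothelial, 4 of 10 epithelial and 8 of 13 skeletal muscle markers were above background on no array. The other markers of these lists were above background on at least 1 of the 6 arrays. Of the 15 fibroblast markers *Pdgfrb* rose and 4 fell, *Pdgfra*, *Dcn*, *Twist1* and *S100a4*, with 2 lower without control 6. Their median log2 fold-change was -0.37. Their summed linear level was 1850 to 2250 times the 75th percentile on the controls and 1550 to 2150 on the TGFß1 arrays.

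**Figure D1:**
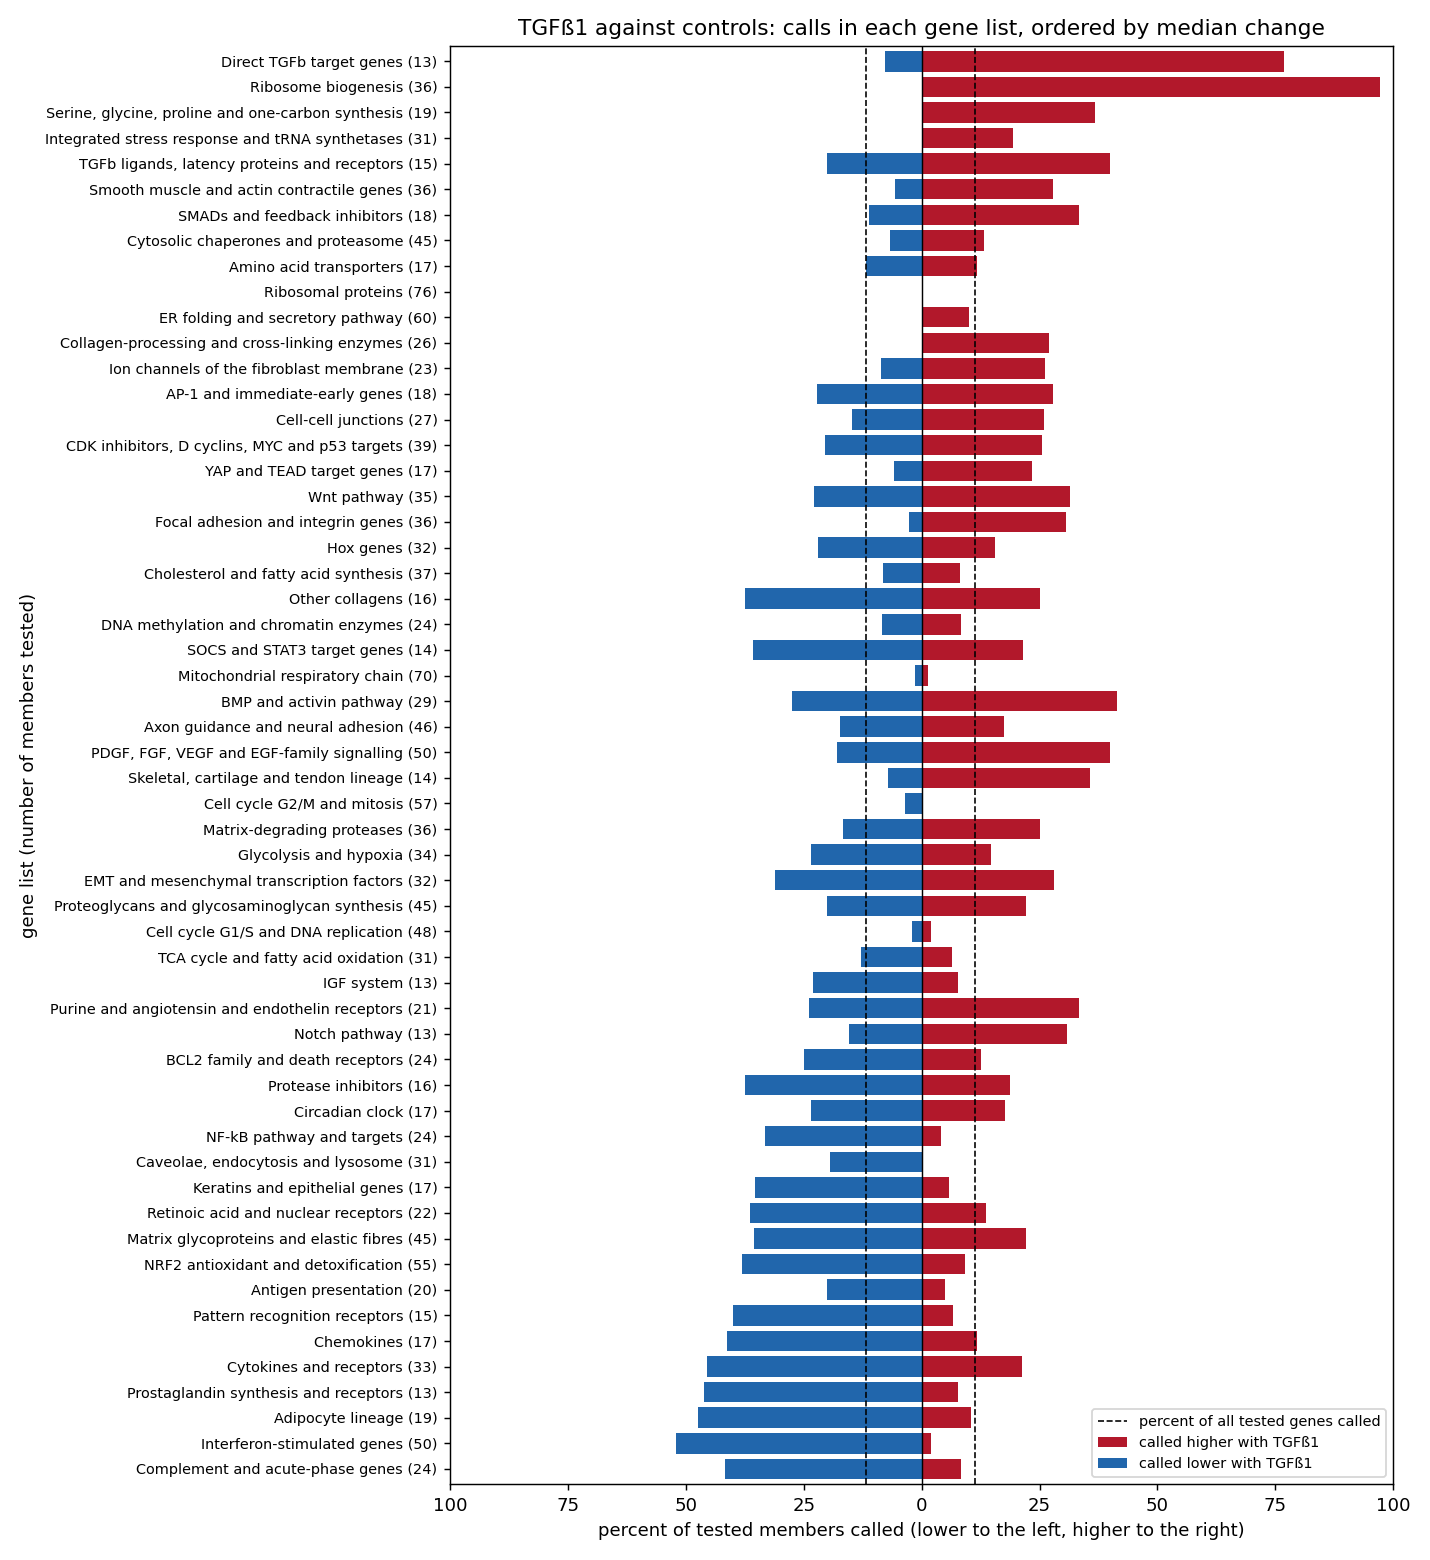
Share of the tested members of each gene list that were called higher (red, to the right) or lower (blue, to the left) with TGFß1 against controls, for the lists drawn, each with at least 12 tested members, ordered by the list's median log2 fold-change. Dashed lines give the share of all tested genes (11.4% higher and 11.9% lower). Ribosome biogenesis has the longest bar to the right, 97.2% of 36 members, and the interferon-stimulated genes the longest to the left, 52.0% of 50.

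Ligands, receptors and inhibitors of the TGFß pathway changed in different directions. Among the ligands, latency proteins and receptors, 6 of 15 tested genes rose and 3 fell. All 3 ligand genes were among those that rose. *Tgfb3* measured 2.57, 2.34 and 2.88 in controls and 4.76, 5.41 and 5.00 with TGFß1 (log2 fold-change 2.55 ± 0.14, q = 8.46e-07). *Tgfb1* measured 0.23, -0.79 and 0.28 in controls and 1.52, 1.45 and 1.54 with TGFß1 (log2 fold-change 1.75 ± 0.23, q = 0.000216). *Tgfb2* measured 0.30, 0.20 and 0.61 in controls and 1.75, 2.08 and 2.15 with TGFß1 (log2 fold-change 1.69 ± 0.16, q = 2.93e-05). The groups did not overlap for any of the 3. With TNFα against the same controls, the log2 fold-changes were -0.40 for *Tgfb3*, 0.97 for *Tgfb1* and -1.12 for *Tgfb2*, and all 3 genes were called higher with TGFß1 than with TNFα in the direct test. Of the genes that store or release the ligand, *Ltbp2*, a latent TGFß-binding protein (log2 fold-change 1.28), *Lrrc32*, which docks latent TGFß on the cell surface (log2 fold-change 1.02), and *Itgav*, an integrin chain that releases it (log2 fold-change 0.82), rose, and the other 4 tested were not called.

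Of 5 tested receptor genes none rose and 3 fell. *Tgfbr3*, the co-receptor betaglycan, measured 3.73, 3.92 and 3.63 in controls and 2.11, 2.22 and 2.22 with TGFß1 (log2 fold-change -1.58 ± 0.11, q = 4.02e-06). *Tgfbr2*, the ligand-binding kinase, measured 3.49, 3.75 and 3.68 in controls and 2.61, 2.92 and 2.68 with TGFß1 (log2 fold-change -0.88 ± 0.15, q = 0.00141). *Acvrl1* fell as well (log2 fold-change -1.33 ± 0.41, q = 0.0259), but its call was lost when control 6, control 11 or any one of the TGFß1 arrays was left out. *Tgfbr1*, the signalling kinase, had a log2 fold-change of -0.12 (q = 0.511) and was not called.

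The SMAD genes were mostly not called: 1 of 6 fell, *Smad9* (log2 fold-change -1.52 ± 0.31, q = 0.00333), and *Smad2* (-0.05), *Smad3* (-0.08) and *Smad4* (0.33) had small log2 fold-changes. The inhibitors moved more, with 6 of 12 higher and 1 lower. *Pmepa1*, whose protein sequesters SMAD2 and SMAD3, measured 4.26, 3.73 and 4.18 in controls and 6.31, 6.42 and 6.33 with TGFß1 (log2 fold-change 2.35 ± 0.21, q = 1.93e-05). *Skil* measured 1.23, 0.56 and 1.17 in controls and 2.51, 2.49 and 2.54 with TGFß1 (log2 fold-change 1.59 ± 0.21, q = 0.00025). *Smad7*, which targets the receptors for degradation, measured 0.36, 0.97 and 0.12 in controls and 2.94, 1.72 and 2.85 with TGFß1 (log2 fold-change 1.70 ± 0.24, q = 0.000379). The 2 inhibitory SMADs parted, since *Smad6*, the inhibitor best known from BMP signalling, measured 1.27, 0.63 and 1.39 in controls and -0.90, -0.87 and -0.69 with TGFß1 (log2 fold-change -1.80 ± 0.17, q = 2.61e-05). *Tgif1* (log2 fold-change 1.29), *Ldlrad4* (log2 fold-change 1.04) and *Smurf2* (log2 fold-change 0.59) rose, and *Ski* was not called (0.13). Against TNFα directly, 4 of these 12 inhibitors were higher with TGFß1 (background 7.56% of all genes) and none lower (background 8.19%). Calls lost when 1 array was left out were those of *Smurf2* (TGFß1 2 or control 11, and in 10 of 21 settings in all).

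**Figure D2:**
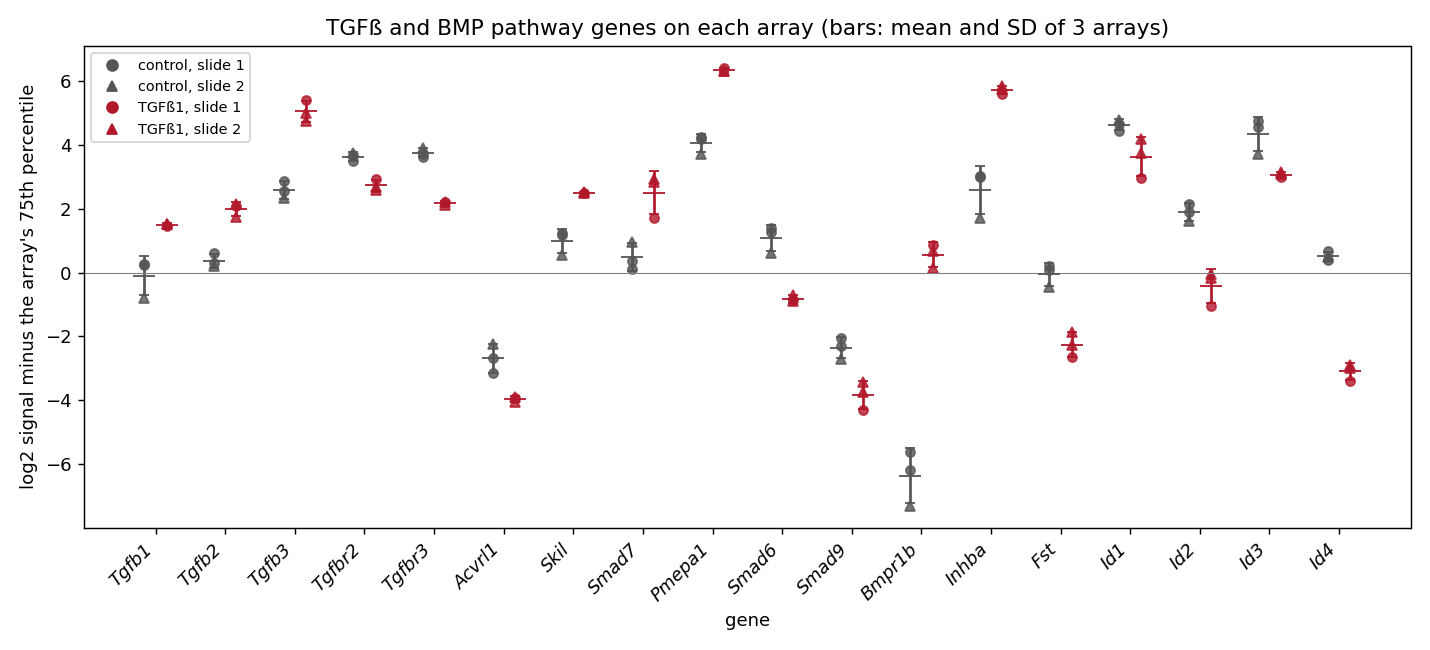
Level of 18 TGFß and BMP pathway genes (log2 intensity minus the array's 75th percentile) on each control (grey) and TGFß1 (red) array, with circles for slide 1, triangles for slide 2, and bars for the mean and SD of 3 arrays. The ligands, *Skil*, *Smad7*, *Pmepa1*, *Bmpr1b* and *Inhba* lie higher on every TGFß1 array than on any control, and the receptors *Tgfbr2* and *Tgfbr3*, *Smad6*, *Fst* and the *Id* genes lower.

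Of 13 tested direct targets of the pathway, 10 rose and 1 fell, with a median log2 fold-change of 1.99 beside 0.07 over all genes. Without the filter on dim probes all 18 of the list entered, 9 rose and 1 fell, and the median was 0.67. *Ccn2*, a matricellular protein, measured 2.52, 1.33 and 2.79 in controls and 5.17, 5.47 and 5.24 with TGFß1 (log2 fold-change 3.19 ± 0.40, q = 0.000167). *Il11*, a cytokine linked to fibrosis, measured 2.30, 0.12 and 2.10 in controls and 4.35, 3.48 and 4.55 with TGFß1 (log2 fold-change 2.70 ± 0.66, q = 0.00833), and its call was lost without control 6. *Has2*, a hyaluronan synthase, measured 2.15, 1.17 and 1.97 in controls and 4.15, 3.80 and 4.27 with TGFß1 (log2 fold-change 2.33 ± 0.33, q = 0.00037). All 3 were higher on each TGFß1 array than on any control. *Prrx2*, a mesenchymal homeobox factor, went the other way, with 4.45, 5.31 and 4.59 in controls and 1.98, 1.97 and 2.36 with TGFß1 (log2 fold-change -2.77 ± 0.25, q = 2.15e-05). *Tgfbi* (log2 fold-change 0.62 ± 0.15, q = 0.00935) and *Cdkn2b*, the CDK inhibitor of the cytostatic response (log2 fold-change 0.63 ± 0.18, q = 0.0191), rose by little. In the direct tests 11 of 14 targets were higher and 2 lower with TGFß1 than with TNFα, and 9 of 13 higher and 1 lower than with IL-1β (background 10.6% and 11.4%) or with IL-6 and sIL-6Rα (background 10.5% and 11.3%). Leaving out 1 array ended the call of *Tgfbi* (TGFß1 7 or control 11, and in 7 of 21 settings in all) and *Cdkn2b* (TGFß1 7).

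The BMP and activin list moved in both directions, with 12 of 29 genes higher and 8 lower, and split by role. Of 6 tested BMP targets, the 4 *Id* genes fell. *Id4* measured 0.68, 0.48 and 0.41 in controls and -2.88, -3.39 and -2.99 with TGFß1 (log2 fold-change -3.64 ± 0.13, q = 1.33e-07). *Id2* measured 1.92, 1.61 and 2.16 in controls and -0.03, -1.04 and -0.18 with TGFß1 (log2 fold-change -2.39 ± 0.28, q = 0.000125). These had the larger falls. *Id1* measured 4.67, 4.80 and 4.45 in controls and 4.18, 2.97 and 3.76 with TGFß1 (log2 fold-change -1.18 ± 0.19, q = 0.000793). *Id3* measured 4.56, 3.73 and 4.75 in controls and 3.09, 2.98 and 3.16 with TGFß1 (log2 fold-change -1.17 ± 0.23, q = 0.00254). No TGFß1 array reached a control in any of them. With TNFα, *Id2* (-1.02) and *Id4* (-2.49) were called lower too. Of 6 tested receptors 4 rose and none fell. *Bmpr1b*, a type I BMP receptor, measured -5.61, -7.30 and -6.17 in controls and 0.69, 0.87 and 0.13 with TGFß1, with no control array and all TGFß1 arrays well above background, which makes it at least 41.7-fold higher (q = 4.02e-06). *Acvr1* (log2 fold-change 1.02 ± 0.08, q = 8.2e-06) and *Bmpr2* (log2 fold-change 0.79 ± 0.09, q = 9.43e-05) rose by less, with a small error.

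Of the activin genes, *Inhba*, which encodes the activin A subunit, measured 3.04, 1.73 and 3.01 in controls and 5.85, 5.61 and 5.76 with TGFß1 (log2 fold-change 3.25 ± 0.40, q = 0.000159). *Fst*, the activin antagonist follistatin, measured 0.08, -0.46 and 0.22 in controls and -2.27, -2.64 and -1.87 with TGFß1 (log2 fold-change -2.20 ± 0.20, q = 2.5e-05). Thus this ligand chain was higher and this antagonist lower on all 3 TGFß1 arrays. *Inhbb*, another activin subunit gene, went the other way from *Inhba* and was called lower. The other antagonists were not of 1 direction: *Fstl3* (log2 fold-change 1.52), *Nbl1* (log2 fold-change 1.44) and *Bmper* (log2 fold-change 1.40) rose and *Grem1* fell (log2 fold-change -0.76). When single arrays were left out, the call was lost for *Bmper* (control 6).

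Collagens are trimers whose chains are hydroxylated in the endoplasmic reticulum, secreted, trimmed and cross-linked. Of 9 tested fibrillar collagen genes 2 rose, *Col5a3* (log2 fold-change 3.27 ± 0.30, q = 2.37e-05) and *Col5a1* (log2 fold-change 0.86 ± 0.26, q = 0.0257), and none fell. The chains of the major fibrils were not called, with log2 fold-changes of 0.56 for *Col1a1* (q = 0.0477, under the fold threshold), 0.22 for *Col1a2* and -1.14 for *Col3a1* (q = 0.0711). *Col3a1* measured 6.13, 7.15 and 6.51 in controls and 4.79, 6.12 and 5.35 with TGFß1. With runs and slide as blocks 2 of the 9 were called lower, *Col3a1* among them, and without TGFß1 2 there were 4 higher. Of 16 other collagen genes 4 rose and 6 fell. The 6 that fell were chains of basement membrane collagen IV (*Col4a1* -1.09, *Col4a2* -1.23 and *Col4a5* -1.57), of collagen VI (*Col6a1* -0.70 and *Col6a2* -0.87) and *Col12a1* (-0.98), each a log2 fold-change, and without control 6 none of them was called, and 3 without TGFß1 2. *Col7a1* (log2 fold-change 2.01), *Col17a1* (log2 fold-change 2.04), *Col18a1* (log2 fold-change 1.45) and *Col6a3* (log2 fold-change 0.82) rose. By array left out, calls were lost for *Col5a1* (TGFß1 12, TGFß1 7, control 1 or control 11, and in 8 of 21 settings in all) and *Col6a3* (TGFß1 12, TGFß1 7, control 1 or control 11, and in 7 of 21 settings in all).

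Of 26 collagen-processing genes 7 rose and none fell, and 4 rose without control 6. The largest were in propeptide cleavage. *Pcolce2*, an enhancer of the C-proteinases, measured -3.06, -4.78 and -3.59 in controls and 2.14, 1.51 and 2.29 with TGFß1 (log2 fold-change 5.73 ± 0.78, q = 0.000291). *Tll1*, such a proteinase, measured -3.98, -7.23 and -4.11 in controls and 1.40, 1.18 and 0.94 with TGFß1 (log2 fold-change 6.44 ± 0.99, q = 0.000659), with 2 of 3 controls above background. *Bmp1*, the main C-proteinase, rose by 0.71. Of the hydroxylases and chaperones, *Plod2*, a lysyl hydroxylase of collagen telopeptides, measured -1.66, -1.73 and -1.51 in controls and -0.87, -0.45 and -0.73 with TGFß1 (log2 fold-change 1.03 ± 0.09, q = 1.53e-05), the *P4ha3* prolyl hydroxylase rose by 0.71 and the chaperone *Fkbp10* by 0.67 on the log2 scale. In cross-linking, *Loxl3* rose (log2 fold-change 0.75), while *Lox* was at -0.53 (q = 0.0366) and not called. Single arrays decided the call of *P4ha3* (TGFß1 12 or control 6), *Fkbp10* (control 6) and *Loxl3* (TGFß1 12, TGFß1 7 or control 6).

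Non-collagen matrix genes split between rises and falls: of 45 glycoproteins and elastic fibre genes 10 rose and 16 fell. None of 9 tested elastic fibre genes rose and 5 fell, led by *Efemp1*, a fibulin, with 6.42, 6.48 and 6.58 in controls and 3.37, 4.05 and 3.83 with TGFß1 (log2 fold-change -2.69 ± 0.24, q = 1.65e-05). *Mfap2* (log2 fold-change -1.66), *Mfap5* (log2 fold-change -1.42), *Fbln5* (log2 fold-change -1.07) and *Fbln1* (log2 fold-change -0.89) fell as well, and *Eln* was above background on no array. Of the glycoproteins, *Tnc*, the adhesion-modulating tenascin-C, measured -0.34, -1.07 and -0.74 in controls and 2.27, 3.26 and 1.99 with TGFß1 (log2 fold-change 3.36 ± 0.22, q = 2.89e-06). *Spon2* measured 0.84, 1.79 and 0.80 in controls and -2.56, -1.87 and -2.19 with TGFß1 (log2 fold-change -3.35 ± 0.38, q = 9.99e-05). Within the CCN family *Ccn2*, *Ccn4* (log2 fold-change 1.14) and *Ccn1* (log2 fold-change 0.75) rose, and *Ccn5* (log2 fold-change -1.27) and *Ccn3*, at least 3.26-fold lower, fell. The laminin chain *Lamb3* rose, at least 2.68-fold, whereas *Lama4* (log2 fold-change -1.46) and *Lamb2* (log2 fold-change -1.43) fell with the nidogens *Nid1* (log2 fold-change -0.96) and *Nid2* (log2 fold-change -1.55). *Fn1*, fibronectin, rose (log2 fold-change 0.87 ± 0.21, q = 0.00856), and *Postn* was not called (1.11, q = 0.059). Calls lost when 1 array was left out were those of *Mfap2* (control 6), *Fbln1* (TGFß1 12, TGFß1 2, TGFß1 7, control 11 or control 6, and in 7 of 21 settings in all), *Ccn1* (TGFß1 7 or control 6), *Ccn5* (TGFß1 7), *Nid2* (TGFß1 2 or control 6) and *Fn1* (TGFß1 7).

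Among 45 proteoglycan and glycosaminoglycan genes 10 rose and 9 fell, with 5 lower without control 6. Of 10 tested small leucine-rich proteoglycans, which sit on collagen fibrils, none rose, and *Prelp* (log2 fold-change -2.85), *Dcn* (log2 fold-change -1.79, call lost without control 6) and *Omd* (log2 fold-change -1.01) fell. The syndecans *Sdc1* (log2 fold-change 1.30) and *Sdc3* (log2 fold-change 1.78) rose, and *Sdc4* (log2 fold-change -0.82) and the glypicans *Gpc3*, *Gpc4* and *Gpc6* fell. *Gpc3* measured -2.24, -2.28 and -1.82 in controls and -5.94, -5.85 and -4.20 with TGFß1 (log2 fold-change -3.24 ± 0.37, q = 9.58e-05). In synthesis 6 of 22 genes rose, among them *Chst11*, a chondroitin sulfotransferase, with -1.21, -1.60 and -1.76 in controls and 1.49, 1.11 and 1.22 with TGFß1 (log2 fold-change 2.83 ± 0.26, q = 2.5e-05), and 1 fell. Leaving out 1 array ended the call of *Gpc4* (control 6).

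Matrix-degrading proteases numbered 9 higher and 6 lower of 36. *Adamts5*, an aggrecanase, measured 0.49, 1.16 and 0.58 in controls and -3.04, -2.36 and -3.52 with TGFß1 (log2 fold-change -3.58 ± 0.42, q = 0.000114), while its relatives *Adamts4* (log2 fold-change 2.00) and *Adamts6* (log2 fold-change 2.14) rose. *Plat*, the tissue plasminogen activator, measured -0.42, -0.43 and -0.42 in controls and 1.91, 2.40 and 2.74 with TGFß1 (log2 fold-change 2.83 ± 0.19, q = 3.25e-06), and *Plaur*, the urokinase receptor, rose by 1.67 on the log2 scale. Of 16 inhibitors 3 rose and 6 fell. The TIMPs parted, since *Timp1* rose (log2 fold-change 1.09), *Timp2* fell (log2 fold-change -0.83) and *Timp3* measured 1.19, 0.92 and 1.14 in controls and -2.40, -1.68 and -2.75 with TGFß1 (log2 fold-change -3.25 ± 0.27, q = 1.15e-05).

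Genes of adhesion rose more often than they fell, 11 against 1 of 36 focal adhesion and integrin genes, and 10 against 1 without control 6. *Itgb3*, the integrin chain that pairs with *Itgav*, measured 2.51, 2.35 and 2.53 in controls and 4.29, 4.66 and 4.35 with TGFß1 (log2 fold-change 2.02 ± 0.12, q = 1.25e-06). *Itga7*, a laminin-binding chain, measured 0.27, 0.27 and 0.07 in controls and 1.88, 2.56 and 1.64 with TGFß1 (log2 fold-change 1.93 ± 0.19, q = 4.27e-05). *Itga11*, a collagen-binding chain, measured -0.74, -0.51 and -0.38 in controls and 0.54, 2.10 and 1.02 with TGFß1 (log2 fold-change 1.91 ± 0.36, q = 0.00232). All 3 were higher on every TGFß1 array than on any control. *Itga5*, of the fibronectin receptor, measured 1.76, 1.02 and 1.89 in controls and 3.13, 3.15 and 3.14 with TGFß1 (log2 fold-change 1.69 ± 0.21, q = 0.000156). The adaptor *Tln2* measured 1.31, 1.17 and 1.31 in controls and 3.21, 3.09 and 3.01 with TGFß1 (log2 fold-change 1.87 ± 0.10, q = 6.4e-07), the most even of these genes across arrays. *Itga3* fell (log2 fold-change -1.19). In the direct test 15 of 37 of these genes were higher and 2 lower with TGFß1 than with TNFα.

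Contractile genes were less steady. Of 36 tested 10 rose and 2 fell, with a median log2 fold-change of 0.43, but 4 rose without control 6, 6 without either of TGFß1 2 or 12, 6 without the slide in the model and 5 with either of 2 other scalings, while 11 rose with median scaling and 13 with runs and slide as blocks. *Tagln*, an actin-binding protein of smooth muscle, measured 2.66, 1.66 and 3.37 in controls and 3.98, 4.38 and 4.43 with TGFß1 (log2 fold-change 1.80 ± 0.44, q = 0.00873), and its call was lost without control 6. *Cnn1*, calponin, measured 0.32, -0.55 and 1.77 in controls and 1.82, 2.45 and 3.05 with TGFß1 (log2 fold-change 1.95 ± 0.71, q = 0.0483), and its call was lost in 10 of 21 settings. *Acta2*, the smooth muscle actin used as a myofibroblast marker, measured 7.52, 7.13 and 8.37 in controls and 7.74, 8.31 and 8.13 with TGFß1 and was not called (0.46, q = 0.248). Smaller rises had less error, as for *Pdlim7* (log2 fold-change 0.92 ± 0.12, q = 0.000242), *Cnn3* (log2 fold-change 0.67 ± 0.09, q = 0.00023) and the non-muscle myosin *Myh9* (log2 fold-change 0.60 ± 0.10, q = 0.00123). *Mylk*, the kinase that activates myosin, measured -1.11, 0.46 and -0.55 in controls and -3.47, -2.30 and -2.84 with TGFß1 (log2 fold-change -2.47 ± 0.50, q = 0.00333). A CArG box, the site of serum response factor, was searched on both strands in the 250 bases before the start of each gene, as given by RefSeq (GRCm38.p6). It was found in 9 of 31 contractile genes with a promoter entry and in 1.6% of 27025 promoters, and none of those 9 genes was called. When single arrays were left out, the call was lost for *Cnn3* (TGFß1 7) and *Myh9* (TGFß1 12 or control 6).

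Ribosome biogenesis, the nucleolar making of ribosomes from RNA polymerase I transcription to subunit assembly, held the highest share of called genes among the lists with at least 12 tested members. Of 36 genes 35 rose and none fell, with a median log2 fold-change of 0.90, and the log2 fold-changes lay between 0.60 and 1.47. The size was modest and shared. *Ddx21*, a nucleolar helicase, measured 3.24, 2.58 and 3.06 in controls and 4.49, 4.38 and 4.51 with TGFß1 (log2 fold-change 1.47 ± 0.25, q = 0.00127). *Polr1b*, a subunit of RNA polymerase I, measured 0.55, -1.02 and 0.41 in controls and 1.04, 1.10 and 1.11 with TGFß1 (log2 fold-change 1.25 ± 0.34, q = 0.0144). Control 6 was the lowest control in both. *Npm1*, nucleophosmin, measured 7.47, 6.74 and 7.40 in controls and 7.97, 7.96 and 7.95 with TGFß1 (log2 fold-change 0.80 ± 0.19, q = 0.00864). *Ncl*, nucleolin, measured 7.16, 6.05 and 6.84 in controls and 7.46, 7.57 and 7.35 with TGFß1 (log2 fold-change 0.88 ± 0.25, q = 0.0187). *Fbl*, fibrillarin, was the member not called, with 7.13, 6.31 and 7.15 in controls and 7.48, 7.36 and 7.38 with TGFß1 (log2 fold-change 0.60 ± 0.23, q = 0.0642). For all 36 genes each TGFß1 array lay above each control, and for all 36 control 6 was the lowest control. By array left out, calls were lost for *Polr1b* (control 6), *Npm1* (control 6) and *Ncl* (TGFß1 2 or control 6).

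The list level, the median over its members against the mean of the controls, was 0.35, -0.60 and 0.25 on controls 1, 6 and 11 and 0.87, 0.86 and 0.82 on the TGFß1 arrays. Thus the TGFß1 arrays lay close together, and control 6 lay apart from the other controls. The median difference was 0.59 on slide 1 and 1.40 on slide 2. Without control 6, 11 of 36 genes were called, with a median of 0.60, and 25 without the slide in the model. *Myc*, which encodes a factor known to drive ribosome biogenesis, measured 2.37, 0.65 and 2.31 in controls and 3.35, 3.39 and 3.19 with TGFß1 (log2 fold-change 1.68 ± 0.40, q = 0.00732). Its 3 TGFß1 arrays lay above all controls, control 6 again being the lowest, and the call was lost without control 6. Its dimer partner *Max* rose (log2 fold-change 0.63 ± 0.12, q = 0.00202), and the antagonists *Mxd1* (log2 fold-change -1.19, call lost without control 6), *Mxd3* (log2 fold-change -0.90) and *Mxd4* (log2 fold-change -1.06) fell. The E-box CACGTG, searched only in the 250 bases before the start, was found in 1 of 31 ribosome biogenesis promoters and in 6.9% of all. A part of *Myc* in the calls of this list was not tested. Single arrays decided the call of *Max* (control 6) and *Mxd4* (TGFß1 12, TGFß1 2 or control 6).

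With TNFα against the same controls, 20 of the 36 genes were called higher (background 6.43% of all genes), with a median of 0.73. With IL-1β (background 0.494% higher and 0.0304% lower) and with IL-6 and sIL-6Rα (background 0.17% and 0.0387%) none was called by limma. TGFß1 was above TNFα by 0.03 to 0.47 on the log2 scale, with a median of 0.22, and none of the 36 genes was called in that direct test. Against IL-1β and against IL-6 with sIL-6Rα, 34 of 36 were called higher with TGFß1 in each case, tests in which control 6 served only through the shared spread and slide difference. The list level was 0.40, -0.23 and 0.11 on IL-1β 5, 10 and 15. It was 0.34, -0.15 and 0.05 on IL-6 with sIL-6Rα 3, 8 and 13, and 0.65, 0.40 and 0.82 on TNFα 4, 9 and 14. In these groups, as in the controls, the array with a label number from 6 to 10 was the lowest, while TGFß1 7 was at 0.86. The part of this run in the calls was not tested.

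Ribosomal proteins, the structural products, did not follow at the fold threshold: 0 of 76 were called by limma, while 19 had a q-value below 0.05 and 41 an unadjusted p below 0.05, all of them higher. Their median log2 fold-change was 0.27 and 75 of 76 were positive. *Rps6* measured 8.10, 7.52 and 8.09 in controls and 8.10, 8.20 and 8.16 with TGFß1 (log2 fold-change 0.31 ± 0.13, q = 0.074). The list level was 0.01, -0.26 and 0.25 on the controls and 0.21, 0.28 and 0.16 on the TGFß1 arrays, so that control 11 overlapped them. Of 14 small nucleolar RNA host genes (Snhg) 3 rose and none fell, with a median of 0.53.

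Other genes of protein production rose by little. In serine, glycine, proline and one-carbon synthesis, which feeds collagen with glycine and proline, 7 of 19 rose and none fell, but 2 without control 6 and 4 without TGFß1 2. *Mthfd2*, a mitochondrial folate enzyme, measured 3.36, 2.52 and 3.36 in controls and 3.62, 4.10 and 3.67 with TGFß1 (log2 fold-change 0.87 ± 0.13, q = 0.000591), and *Pycr1* (log2 fold-change 0.68), *Aldh18a1* (log2 fold-change 0.67) and *Shmt2* (log2 fold-change 0.67) rose as well. Among ATF4 targets and tRNA synthetases 6 of 31 rose and none fell, between 2 without control 6 and 12 without control 1 (10 without control 11). The largest was *Fgf21*, a stress-induced hormone, with -3.76, -3.97 and -3.14 in controls and -0.91, -0.92 and -0.87 with TGFß1 (log2 fold-change 2.60 ± 0.44, q = 0.0012). Calls lost when 1 array was left out were those of *Pycr1* (TGFß1 12, TGFß1 2, TGFß1 7, control 1, control 11 or control 6, and in 12 of 21 settings in all), *Aldh18a1* (control 6) and *Shmt2* (TGFß1 12, TGFß1 2, TGFß1 7 or control 6, and in 9 of 21 settings in all).

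In the ER and secretory pathway 6 of 60 genes rose and none fell, and 28 had a q-value below 0.05 and a positive change. *Creb3l1*, a membrane-bound factor of secretory and collagen genes, measured 1.43, 1.13 and 2.10 in controls and 2.99, 3.39 and 3.18 with TGFß1 (log2 fold-change 1.70 ± 0.20, q = 0.000131). *Kdelr3*, a retrieval receptor for ER proteins, measured 1.86, 1.49 and 2.15 in controls and 2.65, 3.19 and 3.12 with TGFß1 (log2 fold-change 1.23 ± 0.19, q = 0.000564). *Xbp1*, a factor of the unfolded protein response, measured 4.82, 5.10 and 5.32 in controls and 5.69, 5.88 and 5.95 with TGFß1 (log2 fold-change 0.75 ± 0.16, q = 0.00414). With TNFα the first 2 were called lower (-1.15 and -0.80), and 10 of 60 genes were called higher and none lower with TGFß1 than with TNFα. Of 45 cytosolic chaperone and proteasome genes 6 rose and 3 fell, with no rise and 2 falls without control 6 and 10 higher without control 11. The inducible heat shock genes *Hspa1a*, with 0.94, 1.02 and 0.96 in controls and -0.62, -0.46 and -0.47 with TGFß1 (log2 fold-change -1.50 ± 0.10, q = 3.56e-06), and *Hspa1b* (log2 fold-change -1.35) were among the 3 that fell, and none of 27 proteasome genes was called.

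Interferon-stimulated genes, which cells raise to block viruses, had the highest share of falls among the lists of that size. Of 50 tested 26 fell (52.0% beside 11.9% of all genes) and 1 rose, with a median log2 fold-change of -0.96. Antiviral effectors, factors and GTPases all took part, with 18 of 34, 4 of 6 and 4 of 10 lower. For 28 of the 50 all TGFß1 arrays lay below all controls, and for 1 above. Falls numbered 13 without control 6, 14 without control 11, 15 without TGFß1 12 and 16 without TGFß1 2, so that the count rests on single arrays, whereas the median without control 6 was -0.93. In the other direction, 34 fell without control 1 and 32 with runs and slide as blocks. With the 6 arrays alone 12 fell, and 17 without the filter on dim probes.

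Among the members that fell were oligoadenylate synthetases, sensors of double-stranded RNA, by unlike amounts. *Oas2* measured 1.84, 2.99 and 3.23 in controls and -0.07, 0.60 and -0.38 with TGFß1 (log2 fold-change -2.62 ± 0.52, q = 0.00274). *Oas3* measured -4.30, -4.57 and -3.55 in controls and -6.14, -6.77 and -6.40 with TGFß1, with no TGFß1 array well above background, which makes it at least 1.51-fold lower (q = 0.00267). Of the factors that carry the interferon signal, *Irf7* measured 3.75, 4.17 and 5.10 in controls and 2.92, 3.25 and 2.01 with TGFß1 (log2 fold-change -1.48 ± 0.41, q = 0.0161). *Stat2* measured 3.97, 4.45 and 4.82 in controls and 2.71, 3.17 and 2.87 with TGFß1 (log2 fold-change -1.49 ± 0.28, q = 0.00218). The TGFß1 arrays lay below every control in both. The GTPase gene *Irgm2* measured 1.67, 2.26 and 2.94 in controls and 0.45, 1.41 and 0.47 with TGFß1 (log2 fold-change -1.41 ± 0.37, q = 0.0128). *Trim30a*, a TRIM-family gene, measured 1.87, 2.44 and 2.61 in controls and 0.94, 1.16 and 0.78 with TGFß1 (log2 fold-change -1.30 ± 0.26, q = 0.00279). The controls were themselves spread in this list, with control 1 low and control 11 high in *Irf7*, *Stat2* and *Irgm2*, and in each of these genes even the lowest control lay above the highest TGFß1 array. *Ifit1* (-1.09, q = 0.118), *Ifit3* (-1.16, q = 0.194) and *Isg15* (-0.85, q = 0.111) had negative log2 fold-changes and were not called. *Gbp4* was called (log2 fold-change -3.58 ± 1.21, q = 0.0375), but TGFß1 7 overlapped the controls. The 1 gene that rose was *Isg20* (log2 fold-change 0.72 ± 0.21, q = 0.0184), whose call was lost without control 6, TGFß1 2 or TGFß1 12, without the filter on dim probes and in a fit of the 6 arrays alone. Leaving out 1 array ended the call of *Irf7* (TGFß1 12, control 11 or control 6), *Irgm2* (control 6) and *Gbp4* (TGFß1 12, TGFß1 2, control 11 or control 6, and in 8 of 20 settings in all).

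With TNFα against the same controls, 32 of the 50 were called higher, with a median of 1.34, and 15 of the 26 that fell with TGFß1 were among them. *Helz2* was lower with both (-1.04 and -1.14). In the direct test 47 of the 52 members tested there were lower with TGFß1 than with TNFα and none higher. Since both comparisons above use the same 3 controls, they are not independent. Against IL-1β 30 of 52 and against IL-6 with sIL-6Rα 35 of 48 were called lower with TGFß1, and 1 higher in each.

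**Figure D3:**
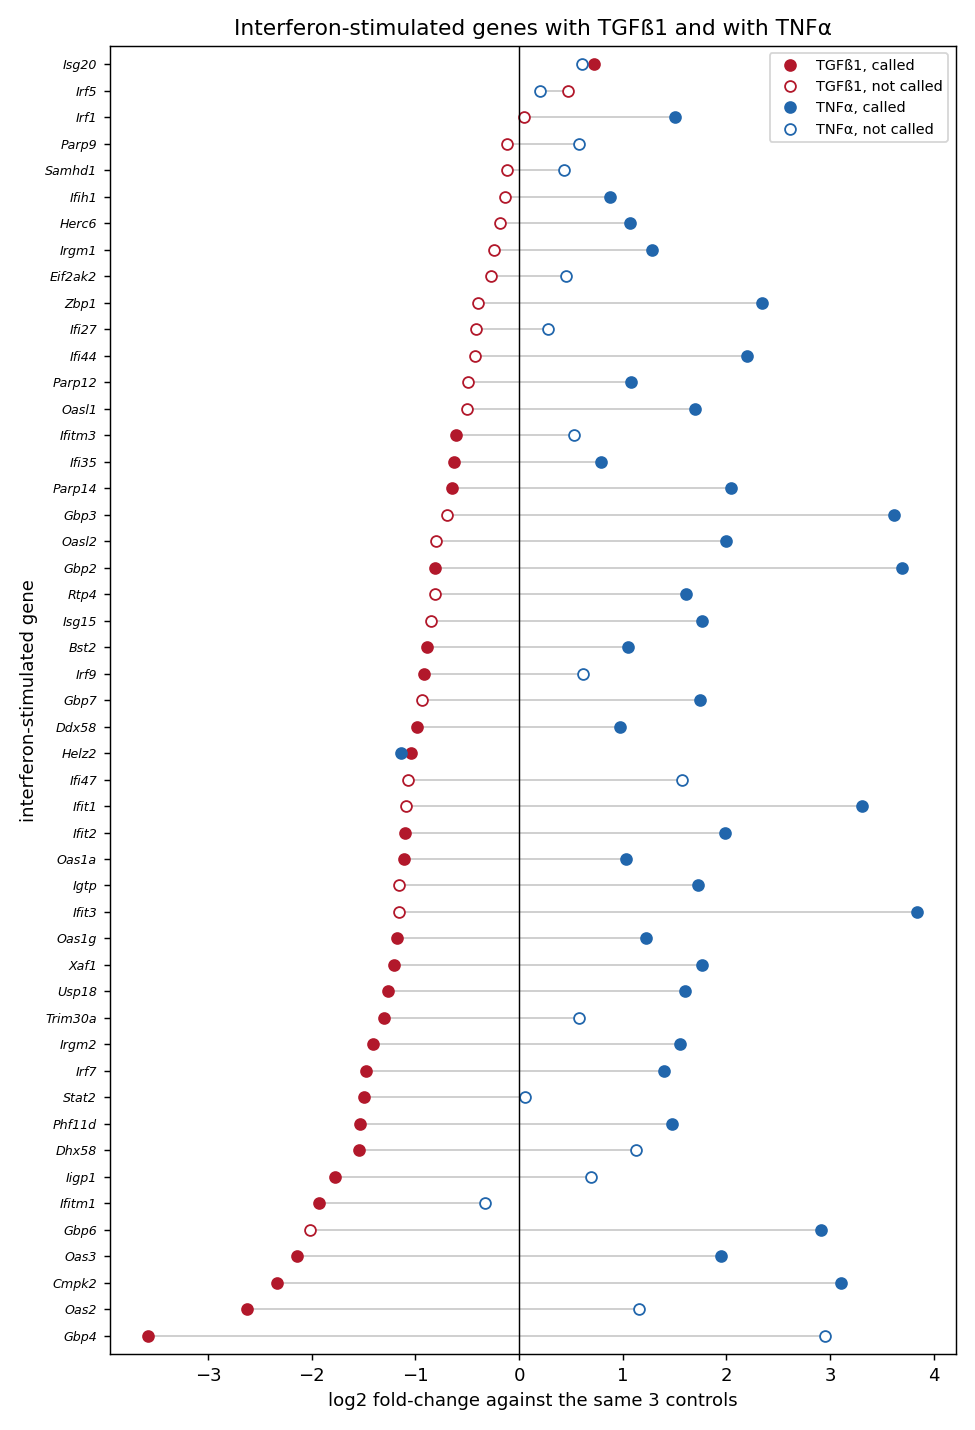
Log2 fold-change against the same 3 controls of 49 of the 50 interferon-stimulated genes with TGFß1 (red) and TNFα (blue), filled where called and open where not, with a line joining the values of a gene. With TGFß1 46 of these 49 lie below 0 and 25 are called lower, and with TNFα 32 are called higher.

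Some of these genes share letters before their start sites. The interferon-stimulated response element, bound by ISGF3 and the IRF factors, holds a pair of GAAA half-sites, searched here as GAAA, any 2 bases and GAAA again, on both strands. It was found in 15 of 38 interferon-stimulated genes with a RefSeq promoter entry (39.5%) and in 3.5% of 27025 promoters, and 8 of those 15 genes fell. That share is near the one in the whole list, where 26 of 50 fell. The remaining genes with a match, *Ifit1* and *Isg15* among them, were not called. The 250 bases before the start are shown for 3 of the genes that fell, 5′ to 3′ on the gene's strand with the match in capitals, from RefSeq on GRCm38.p6: *Oas3* at chr5:120777660-120777909 (minus strand, match ending 65 bases before the start), *Irgm2* at chr11:58214727-58214976 (plus strand, 54 bases) and *Trim30a* at chr7:104465194-104465443 (minus strand, 26 bases). A match is a description of these letters and not a binding site shown by these data.
Oas3: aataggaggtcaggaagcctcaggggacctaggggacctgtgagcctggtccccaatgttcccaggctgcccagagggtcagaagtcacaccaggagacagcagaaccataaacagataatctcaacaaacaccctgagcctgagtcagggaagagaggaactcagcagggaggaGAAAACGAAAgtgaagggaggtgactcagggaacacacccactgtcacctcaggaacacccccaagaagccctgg
Irgm2: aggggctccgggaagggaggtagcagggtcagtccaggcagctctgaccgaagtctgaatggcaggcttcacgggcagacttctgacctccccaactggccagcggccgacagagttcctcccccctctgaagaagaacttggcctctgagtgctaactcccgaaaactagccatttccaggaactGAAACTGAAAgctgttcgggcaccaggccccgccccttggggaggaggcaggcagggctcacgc
Trim30a: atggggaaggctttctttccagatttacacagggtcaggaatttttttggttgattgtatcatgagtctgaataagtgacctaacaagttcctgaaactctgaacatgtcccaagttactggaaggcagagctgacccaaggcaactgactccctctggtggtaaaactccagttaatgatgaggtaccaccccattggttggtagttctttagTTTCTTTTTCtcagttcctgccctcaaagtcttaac
The match in *Trim30a* lies on the opposite strand, where the half-sites read as TTTC.

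Other genes of inflammation were lower too. Of 17 chemokines and their receptors 2 rose and 7 fell. *Cxcl5*, which draws neutrophils, measured 1.87, 2.27 and 1.76 in controls and -2.10, -2.11 and -2.18 with TGFß1 (log2 fold-change -4.18 ± 0.17, q = 1.33e-07). *Cxcl1*, which does so too, measured 1.96, 1.85 and 1.84 in controls and -0.82, -1.75 and -0.98 with TGFß1 (log2 fold-change -3.15 ± 0.19, q = 1.69e-06). *Cxcl12*, a chemokine that fibroblasts make constitutively, measured 5.75, 4.66 and 5.52 in controls and 7.21, 7.78 and 7.18 with TGFß1 (log2 fold-change 2.22 ± 0.19, q = 1.48e-05), and its scavenging receptor *Ackr3* rose (log2 fold-change 1.67). The list's median was -0.51 and became 0.03 without the filter on dim probes, which brings the list to 36 genes. In the direct test 14 of 18 were lower and 1 higher with TGFß1 than with TNFα.

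Of 24 complement and acute-phase genes 10 fell and 2 rose, with a median of -1.13, and 5 fell without control 6 and 15 with runs and slide as blocks. The median was -0.77 without control 6, -0.60 with normexp background correction and -0.56 without the filter on dim probes, which brings the list to 37 genes. *Ptx3*, a soluble pattern recognition protein, measured 0.71, 1.31 and 1.58 in controls and -4.68, -4.31 and -3.65 with TGFß1 (log2 fold-change -5.46 ± 0.39, q = 4.71e-06). *C1s1*, a protease of the classical pathway, measured 0.96, 2.28 and 1.71 in controls and -1.40, -1.13 and -1.30 with TGFß1 (log2 fold-change -2.92 ± 0.53, q = 0.00174). *C3*, the central component of complement, measured 0.92, 2.57 and 1.76 in controls and -0.53, -1.11 and -0.14 with TGFß1 (log2 fold-change -2.44 ± 0.69, q = 0.0178). *Cfi*, which encodes an inhibitor of the cascade, was above background on no control and on all TGFß1 arrays, at least 6.27-fold higher (q = 7.35e-06). The list level was -0.26, 0.47 and -0.09 on the controls and -1.15, -1.18 and -1.17 on the TGFß1 arrays. When single arrays were left out, the call was lost for *C3* (TGFß1 7 or control 6).

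Receptors of the IL-6 and IL-1 families were lower. Of 33 cytokine and receptor genes 7 rose and 15 fell, and 4 and 10 without control 6. In the IL-6 family 6 of 10 fell, among them the shared chain *Il6st*, or gp130, with 3.51, 3.60 and 3.68 in controls and 2.04, 2.61 and 2.05 with TGFß1 (log2 fold-change -1.26 ± 0.16, q = 0.000205), and its partners *Il6ra* (log2 fold-change -2.54), *Osmr* (log2 fold-change -1.13), *Lifr* (log2 fold-change -1.08) and *Il11ra1* (log2 fold-change -1.47). The IL-1 receptor chains *Il1r1* (log2 fold-change -1.18) and *Il1rap* (log2 fold-change -1.09) fell, as did *Tnfrsf1a* (log2 fold-change -0.67). *Tnfrsf11b*, osteoprotegerin, rose, with -2.38, -5.21 and -3.16 in controls and 1.65, 1.45 and 1.58 with TGFß1 (log2 fold-change 5.31 ± 0.77, q = 0.000449). Of 15 pattern recognition receptors 1 rose and 6 fell, with *Tlr4*, the receptor of lipopolysaccharide, at -0.96, 0.15 and -0.79 in controls and -3.24, -3.27 and -2.85 with TGFß1 (log2 fold-change -2.75 ± 0.32, q = 0.000126) and *Scara5*, a scavenger receptor, at 1.19, 2.15 and 1.81 in controls and -4.64, -4.65 and -3.28 with TGFß1 (log2 fold-change -5.97 ± 0.47, q = 8.41e-06). Of 24 genes of the NF-kB pathway 1 rose and 8 fell, with 5 lower under normexp background correction. The feedback inhibitors *Nfkbia* (log2 fold-change -0.61), *Nfkbie* (log2 fold-change -0.78) and *Tnfaip3* (log2 fold-change -0.73) were among those that fell, and *Ptgs2* was the one that rose. In antigen presentation 4 of 20 fell, 2 without control 6 and 7 with runs and slide as blocks, and 1 rose, *Cd1d1*, which presents lipids (log2 fold-change 2.62 ± 0.38, q = 0.000432). By array left out, calls were lost for *Lifr* (TGFß1 2, TGFß1 7, control 11 or control 6), *Il1rap* (TGFß1 2 or control 6) and *Nfkbia* (control 1).

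In the prostaglandin pathway 4 of the 6 genes that fell were receptors. The median was -0.74, and lay at -0.49 without control 6, -0.32 with normexp and -0.20 without the filter on dim probes. *Ptgs2*, cyclooxygenase-2, measured -0.82, -2.19 and -1.08 in controls and 0.82, 0.72 and 0.80 with TGFß1 (log2 fold-change 2.15 ± 0.46, q = 0.00423) and was the 1 gene of 13 that rose. *Ptgfr*, the receptor of prostaglandin F2α, measured 2.56, 2.74 and 2.15 in controls and -1.85, -0.93 and -1.78 with TGFß1 (log2 fold-change -3.93 ± 0.28, q = 4.02e-06). *Ptgir*, of prostacyclin, measured -2.01, -0.57 and -2.13 in controls and -4.28, -4.77 and -5.04 with TGFß1 (log2 fold-change -3.19 ± 0.51, q = 0.000806), with 1 of 3 TGFß1 arrays above background. The transporter *Slco2a1* (log2 fold-change -2.95) and *Ptger4* (log2 fold-change -1.75) fell as well.

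More growth factor genes rose than fell. In the PDGF, FGF, VEGF and EGF families 20 of 50 genes rose and 9 fell, with 16 and 9 without control 6, and the median was 0.02. *Ret*, the receptor of the GDNF family, measured -6.28, -7.21 and -6.52 in controls and -0.31, -0.01 and -0.44 with TGFß1, at least 23.7-fold higher (q = 1.33e-07), and its co-receptor *Gfra1* rose by 2.45 on the log2 scale. *Vegfa*, the main angiogenic factor, measured 1.80, 0.53 and 1.35 in controls and 5.33, 5.44 and 5.23 with TGFß1 (log2 fold-change 4.28 ± 0.34, q = 8.64e-06). *Pdgfa* measured 3.70, 1.92 and 3.82 in controls and 5.97, 6.25 and 5.89 with TGFß1 (log2 fold-change 3.06 ± 0.50, q = 0.000976). *Hbegf* measured 1.56, 0.45 and 1.48 in controls and 4.39, 4.21 and 4.27 with TGFß1 (log2 fold-change 3.18 ± 0.32, q = 4.38e-05). Each of the 3 was lowest on control 6 and separate from the controls on all TGFß1 arrays. The PDGF receptors parted, *Pdgfra* measuring 3.42, 3.82 and 3.66 in controls and 1.42, 1.76 and 1.76 with TGFß1 (log2 fold-change -1.99 ± 0.24, q = 0.000146). *Pdgfrb* measured 3.82, 4.04 and 3.90 in controls and 4.52, 4.77 and 4.51 with TGFß1 (log2 fold-change 0.69 ± 0.14, q = 0.00301). *Fgf10*, a factor from mesenchyme to epithelium, fell (log2 fold-change -2.71 ± 0.21, q = 8.41e-06), with *Vegfd* (log2 fold-change -2.36) and *Kitl* (log2 fold-change -2.30). Single arrays decided the call of *Pdgfrb* (TGFß1 7).

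In the Notch pathway 4 of 13 genes rose and 2 fell, with a median log2 fold-change of -0.17 and 5 of 13 positive. *Jag1*, a ligand, measured -3.13, -3.90 and -2.30 in controls and 2.85, 2.41 and 2.98 with TGFß1 (log2 fold-change 5.88 ± 0.41, q = 3.62e-06). *Notch4*, a receptor, measured -1.82, -2.30 and -1.82 in controls and 1.44, 2.17 and 1.25 with TGFß1 (log2 fold-change 3.72 ± 0.16, q = 1.82e-07). *Hes1*, a target, measured -4.11, -2.76 and -4.14 in controls and 0.37, -1.34 and 0.46 with TGFß1 (log2 fold-change 2.90 ± 0.38, q = 0.000221). All 3 were higher on each TGFß1 array than on any control. *Notch3* fell (log2 fold-change -1.22 ± 0.32, q = 0.0126), with TGFß1 2 and 12 inside the range of the controls, and the call was lost without control 6, without TGFß1 7 and without the slide. *Notch2* (log2 fold-change 0.75) was the other receptor that rose, and *Dlk1*, an atypical ligand, fell (log2 fold-change -1.33). Of the 2 targets tested, the one beside *Hes1* had a log2 fold-change of -2.09 and was not called.

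Of 35 Wnt pathway genes 11 rose and 8 fell, with 6 higher where probes had to be above background in both groups. By role, 5 of 10 ligands and R-spondins rose and 3 fell. *Wnt9a* measured -0.63, -1.51 and -0.73 in controls and 2.27, 2.72 and 2.45 with TGFß1 (log2 fold-change 3.46 ± 0.29, q = 1.09e-05). *Wnt5a* measured 1.13, 1.01 and 1.29 in controls and 2.52, 2.84 and 2.92 with TGFß1 (log2 fold-change 1.66 ± 0.15, q = 2.5e-05), while *Wnt16* went from all controls to no TGFß1 array above background, at least 9.54-fold lower (q = 0.000226). The secreted inhibitors *Sfrp1* (log2 fold-change -2.46) and *Dkk2* (log2 fold-change -2.05) fell and *Sfrp2* rose (log2 fold-change 1.04). *Lef1*, both a factor and a target of the pathway, rose (log2 fold-change 2.52 ± 0.42, q = 0.00112). Of the Hedgehog list 2 of 9 fell, the co-receptors *Gas1* (log2 fold-change -2.54) and *Cdon* (log2 fold-change -1.12), and 4 with runs and slide as blocks. Calls lost when 1 array was left out were those of *Sfrp2* (TGFß1 12, TGFß1 2, TGFß1 7 or control 6) and *Cdon* (TGFß1 12, TGFß1 2, control 11 or control 6).

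Transcription factors of the mesenchyme and of epithelial to mesenchymal transition were divided, 9 higher and 10 lower of 32. *Runx1* measured 3.10, 1.62 and 3.00 in controls and 4.47, 4.27 and 4.61 with TGFß1 (log2 fold-change 1.97 ± 0.32, q = 0.000982). *Sox4*, a factor known as a TGFß target, measured 1.95, 1.47 and 1.43 in controls and 3.66, 3.83 and 3.27 with TGFß1 (log2 fold-change 2.08 ± 0.26, q = 0.000179). *Zeb1* rose (log2 fold-change 0.85 ± 0.11, q = 0.000266), *Snai2* (log2 fold-change -1.09 ± 0.11, q = 3.64e-05) and *Twist1* (log2 fold-change -1.27 ± 0.21, q = 0.00107) fell, and *Snai1* was not called (0.39, q = 0.023). *Klf4* measured 6.20, 5.79 and 6.36 in controls and 3.94, 4.01 and 4.25 with TGFß1 (log2 fold-change -2.00 ± 0.15, q = 5.86e-06). Of the targets of YAP and TEAD 4 of 17 rose and 1 fell, with 2 higher without control 6 or without TGFß1 7.

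**Figure D4:**
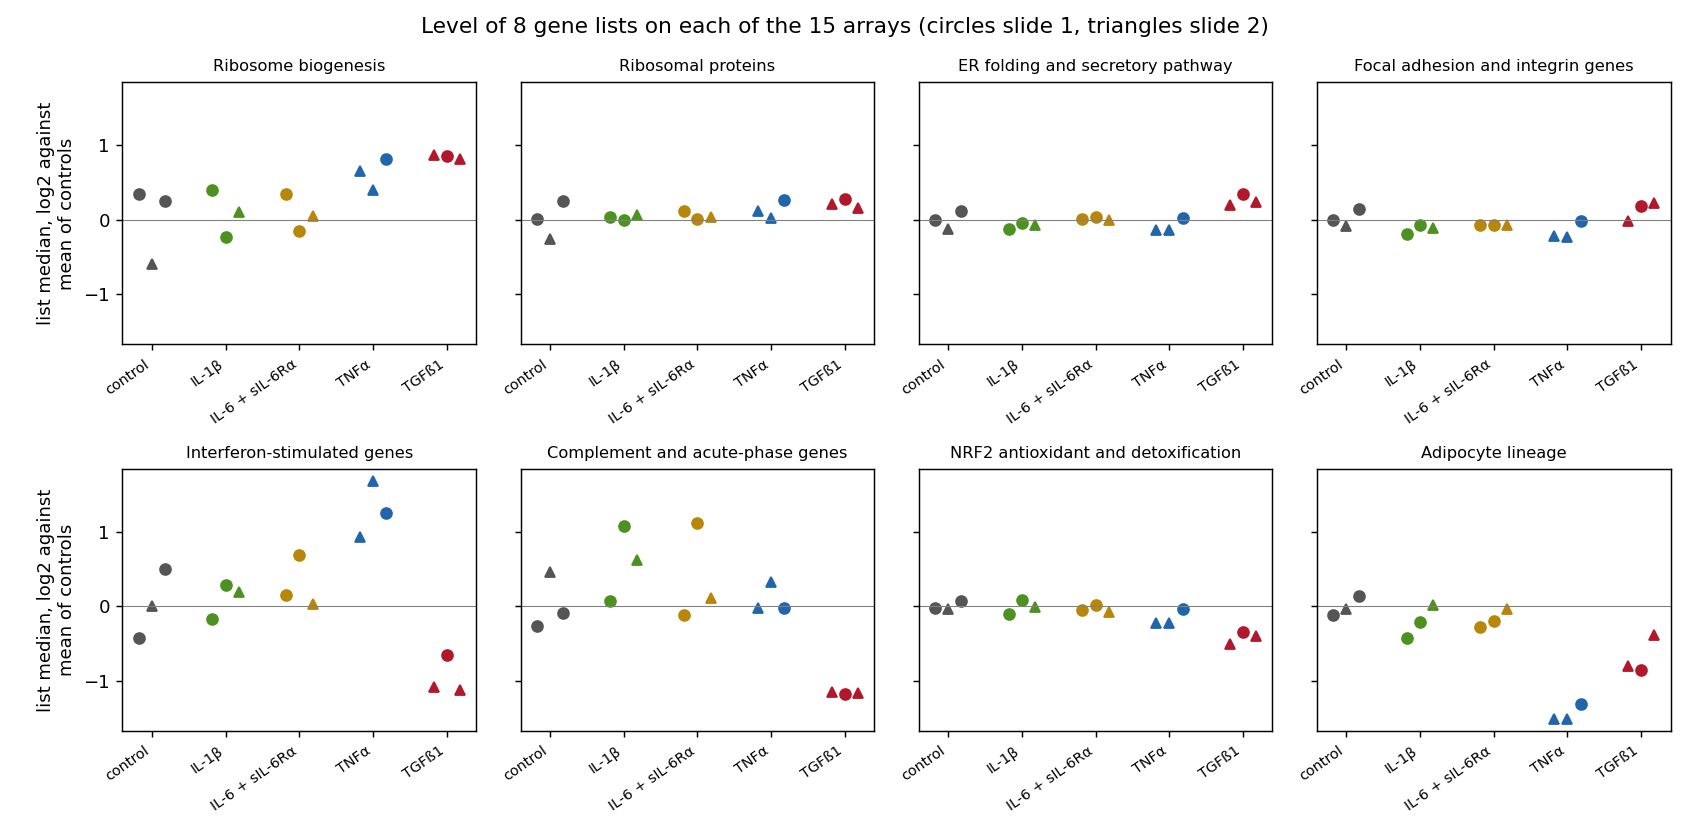
Level of 8 gene lists on each of the 15 arrays, as the median over the list's members of the log2 difference from the mean of the 3 controls (circles slide 1, triangles slide 2). The TGFß1 arrays lie above the controls for ribosome biogenesis, where control 6 is at -0.60, and below them for the interferon-stimulated, complement, detoxification and adipocyte lists, and with TNFα the interferon-stimulated genes lie between 0.94 and 1.69.

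Of 55 tested genes that detoxify foreign compounds and reactive oxygen 21 fell and 5 rose, with 3 higher without control 6 or with normexp. In conjugation and oxidation 17 of 30 fell (56.7%) and 2 rose, with a median of -1.18. Of 25 antioxidant genes 4 fell (16%) and 3 rose, with a median of -0.04, and the difference between these roles was not tested. *Abcc3*, an exporter of conjugates, measured -0.82, 0.12 and -0.29 in controls and -6.64, -5.39 and -5.98 with TGFß1, with no TGFß1 array above background, at least 21.2-fold lower (q = 6.4e-06). The glutathione transferases *Gstm1*, with 3.38, 4.81 and 4.24 in controls and 1.15, 1.59 and 1.47 with TGFß1 (log2 fold-change -2.80 ± 0.44, q = 0.000704), and *Mgst1*, with 4.47, 5.33 and 4.48 in controls and 1.93, 2.17 and 1.93 with TGFß1 (log2 fold-change -2.80 ± 0.35, q = 0.000173), fell, as did *Gstt1* (log2 fold-change -2.73), *Mgst2* (log2 fold-change -1.66) and *Mgst3* (log2 fold-change -2.17). *Gsto1*, another transferase, rose, with 6.91, 6.23 and 6.60 in controls and 7.83, 8.28 and 7.55 with TGFß1 (log2 fold-change 1.48 ± 0.16, q = 8.16e-05). *Nqo1*, the quinone reductase used as a readout of NRF2, measured 1.28, 1.46 and 1.16 in controls and -0.43, -0.23 and -0.40 with TGFß1 (log2 fold-change -1.61 ± 0.19, q = 0.000132). *Nfe2l2*, the gene of NRF2, measured 3.43, 3.61 and 3.63 in controls and 2.82, 3.03 and 2.83 with TGFß1 (log2 fold-change -0.64 ± 0.13, q = 0.00351). Other NRF2 targets, *Hmox1* (-0.29, q = 0.0273) and *Gclm* (-0.50, q = 0.001), stayed under the fold threshold. Against IL-1β 20 of 56 genes and against IL-6 with sIL-6Rα 21 of 56 were called lower with TGFß1, and against TNFα 12 of 55. The antioxidant response element TGACNNNGC was found in 9 of 43 promoters of the list (20.9%) and in 11.5% of all. *Nox4*, an NADPH oxidase gene known as a TGFß target, was above background on no array. Leaving out 1 array ended the call of *Nfe2l2* (control 6).

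Genes of the adipocyte lineage fell, 9 of 19, and 2 rose, with a median of -0.83, and the same counts were found without control 6. *Cebpa*, a factor of adipocyte differentiation, measured 1.92, 2.87 and 2.22 in controls and 0.13, 0.43 and 0.28 with TGFß1 (log2 fold-change -2.03 ± 0.33, q = 0.000841). *Pparg*, its partner, measured 4.53, 4.09 and 4.51 in controls and 3.31, 3.13 and 3.50 with TGFß1 (log2 fold-change -1.01 ± 0.15, q = 0.000575). Neither gene had a TGFß1 array within the range of the controls. *Lpl*, lipoprotein lipase, measured 5.72, 6.79 and 5.62 in controls and 3.66, 3.98 and 3.78 with TGFß1 (log2 fold-change -2.24 ± 0.45, q = 0.00312). *Fabp4* measured 2.22, 2.31 and 2.49 in controls and 0.82, 0.17 and 1.58 with TGFß1 (log2 fold-change -1.69 ± 0.24, q = 0.000444). With TNFα the list's median was -1.48, and in the direct test 7 of 17 genes were higher and 2 lower with TGFß1. *Plin2*, a lipid droplet protein, rose with TGFß1 (log2 fold-change 0.89 ± 0.12, q = 0.000306) and was called lower with TNFα (-0.73). Of 22 genes of retinoic acid and nuclear receptors 3 rose and 8 fell, with 1 higher without control 6 or TGFß1 12. *Rora* (log2 fold-change -2.26) and *Nr1h3* (log2 fold-change -2.04) had the largest falls.

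Of 32 Hox genes, which carry positional identity, 5 rose, 7 fell and 20 were not called, and all of the falls were in the Hoxc cluster. Differences between the clusters were not tested. Of 9 tested genes of the Hoxc cluster 7 fell and none rose, with a median of -0.89, while 2 of 10 in Hoxa and 3 of 9 in Hoxb rose and none fell, and none of 4 in Hoxd was called. *Hoxc8* measured 0.86, 0.94 and 0.99 in controls and -0.43, -0.18 and -0.26 with TGFß1 (log2 fold-change -1.13 ± 0.14, q = 0.000194). *Hoxc13* measured 1.80, 2.10 and 1.98 in controls and 0.89, 0.78 and 0.92 with TGFß1 (log2 fold-change -1.13 ± 0.11, q = 2.91e-05). Both lay below every control on each TGFß1 array. *Hoxa4* measured -2.61, -2.58 and -2.51 in controls and -1.29, -1.17 and -1.57 with TGFß1 (log2 fold-change 1.34 ± 0.17, q = 0.000184). *Hoxb4* measured 0.59, 0.61 and 0.71 in controls and 1.42, 1.76 and 1.46 with TGFß1 (log2 fold-change 0.92 ± 0.11, q = 0.000106). The groups did not overlap in any of these 4 genes.

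Receptors of small ligands, in a list that also holds some enzymes, had several of the largest changes, 7 higher and 5 lower of 21, with 3 lower without control 6. The enzyme genes *Sphk1* and *Enpp1* are among those higher and *Enpp2* among those lower. *Htr2b*, a serotonin receptor, measured -6.59, -5.91 and -5.04 in controls and -0.86, -0.37 and -0.76 with TGFß1, at least 17.8-fold higher (q = 2.1e-05). *Sphk1*, which makes sphingosine 1-phosphate, measured 0.40, -0.08 and 0.71 in controls and 4.61, 4.76 and 4.66 with TGFß1 (log2 fold-change 4.46 ± 0.19, q = 1.63e-07). *S1pr1*, a receptor of that lipid, measured -1.56, -1.55 and -0.13 in controls and -3.55, -4.42 and -3.10 with TGFß1 (log2 fold-change -2.68 ± 0.52, q = 0.0025). The enzyme rose and this receptor fell. *Agtr2*, the type 2 angiotensin receptor, measured 3.97, 6.16 and 3.97 in controls and -0.97, 0.55 and -1.08 with TGFß1 (log2 fold-change -5.19 ± 0.87, q = 0.00113), control 6 being the highest. Of 23 ion channels 6 rose and 2 fell, 3 rising with quantile normalization, with the mechanosensitive *Piezo2* at -4.93, -4.90 and -5.73 in controls and -1.65, -2.11 and -2.34 with TGFß1 (log2 fold-change 3.09 ± 0.72, q = 0.00677) and *Piezo1* rising by 0.73. *Rhob*, a small GTPase gene, measured 1.00, 0.83 and 1.14 in controls and 3.61, 3.79 and 3.50 with TGFß1 (log2 fold-change 2.75 ± 0.12, q = 2.19e-07). When single arrays were left out, the call was lost for *Piezo1* (control 6).

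Junction genes rose on the side of desmosomes, tight and gap junctions, 6 of 14 with none lower, while of 13 cadherins and protocadherins 1 rose and 4 fell. Of both roles together 7 rose, 4 without control 6, and 2 fell without TGFß1 12. *Gja1*, connexin 43, measured -0.14, -0.77 and -0.34 in controls and 1.08, 1.45 and 0.91 with TGFß1 (log2 fold-change 1.72 ± 0.21, q = 0.000134), and *Pkp1*, of desmosomes, was at least 2.98-fold higher (q = 1.98e-06). Of 17 keratin and epithelial genes 1 rose and 6 fell, with 2 lower where probes had to be above background in both groups. *Krt15* measured 1.16, 1.05 and 1.39 in controls and -4.63, -3.87 and -3.61 with TGFß1 (log2 fold-change -5.16 ± 0.36, q = 4.02e-06), and *Krt8* rose, at least 3.37-fold (q = 0.016), with its call lost without control 6 or TGFß1 2. Of the 10 epithelial markers 4 were above background on no array, *Cdh1* included, and their summed linear level was 0.298 to 0.363 times the 75th percentile on the controls and 0.388 to 0.859 on the TGFß1 arrays. For leukocyte markers it was 10.7 to 22.7 and 12.8 to 21.9, with 1 of 5 tested genes higher, *Fcer1g* (log2 fold-change 1.49 ± 0.30, q = 0.00304). For skeletal muscle markers it was 4.72 to 10.5 and 9.25 to 26.6, with 1 of 5 tested genes lower, and for endothelial markers 0.156 to 0.205 and 0.185 to 0.201. A part of other cells in these results was not tested. In caveolae, membrane pits of fibroblasts, 3 of 7 genes fell, *Cavin2* with 3.41, 3.65 and 3.68 in controls and 1.21, 1.42 and 1.40 with TGFß1 (log2 fold-change -2.22 ± 0.15, q = 2.88e-06), *Cavin1* (log2 fold-change -1.03) and *Cav2* (log2 fold-change -0.99).

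Few cell cycle genes were called. Of 48 genes of G1/S and DNA replication 1 rose, *E2f8* (log2 fold-change 0.82 ± 0.09, q = 7.09e-05), and 1 fell, *Lig1* (log2 fold-change -0.64 ± 0.08, q = 0.000181), and of 57 of G2/M and mitosis none rose and 2 fell, *Nusap1* (log2 fold-change -0.65 ± 0.15, q = 0.00629) and *Cdkn3* (log2 fold-change -0.80 ± 0.17, q = 0.00479), all shares below the background. Without control 6 there were 4 lower G2/M genes, as without TGFß1 12 or without the slide in the model, and 5 with quantile normalization. For G2/M limma gave 2 higher and 8 lower at a q-value below 0.05, as at an unadjusted p below 0.05, without the fold threshold. The slides differed, with a G2/M median difference of -0.2 on slide 1 and 0.22 on slide 2. On both slides 21 of the 57 genes had the same sign. *Mki67*, the proliferation marker, measured 5.44, 5.24 and 5.37 in controls and 5.02, 4.98 and 4.97 with TGFß1 and had a log2 fold-change of -0.33 (q = 0.0082). Of 19 p53 targets 6 rose and 2 fell, the largest being *Pmaip1*, a BH3-only protein (log2 fold-change 2.66 ± 0.48, q = 0.00171), and *Gadd45a* (log2 fold-change 1.64). With the CDK inhibitors, D cyclins and MYC genes of the same list 10 rose and 8 fell, and 5 and 5 without control 6. By array left out, calls were lost for *Nusap1* (TGFß1 7 or control 11).

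Energy metabolism was also below the background in its largest lists. Of 70 respiratory chain genes 1 rose and 1 fell, and of 37 genes of cholesterol and fatty acid synthesis 3 rose and 3 fell, with 1 lower without control 6 and 5 without TGFß1 7. Of 34 glycolysis and hypoxia genes 5 rose and 8 fell, with 3 and 7 without control 6, and known hypoxia targets went in both directions: *Vegfa* rose, while *Adm*, adrenomedullin, measured 3.05, 3.59 and 3.63 in controls and -0.27, 1.44 and -0.17 with TGFß1 (log2 fold-change -2.95 ± 0.43, q = 0.000466), and *Pdk1* (log2 fold-change -1.27) and *Bnip3* (log2 fold-change -0.89) fell. Of 31 genes of the TCA cycle and fatty acid oxidation 2 rose and 4 fell, 7 with quantile normalization, among them *Cpt1a*, the entry enzyme of fatty acid oxidation, with 4.50, 4.18 and 4.58 in controls and 2.34, 2.83 and 2.63 with TGFß1 (log2 fold-change -1.73 ± 0.12, q = 3.25e-06). In whole families named by symbol, 25 of 183 solute carriers rose and 21 fell, 26 of 347 zinc finger proteins (Zfp) rose and 18 fell, and of 55 histone genes none rose and 3 fell. Of 43 Rab GTPases 2 rose and 10 fell, and of 13 tetraspanins none rose and 4 fell.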

How the data were processed

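Total RNA of mouse fibroblasts was measured on 15 one-color Agilent arrays, 3 for each of 5 groups. The deposited scanner files of the authors hold spot intensity from Agilent Feature Extraction 10.7.3.1 (the submitters' processing notes), and the processed signal is background-corrected by that software. The values of the deposited table equalled the processed signal of the scanner files, on the linear scale and not scaled (largest difference 0). The log2 step and the scaling to the 75th percentile were done here.

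Of 62976 spots, control spots were left out, as were 77 to 155 outlier spots per array. No spot was saturated, 48.3% to 54.9% of probes were well above background, the 75th percentile was at a signal of 325 to 445, and the number of arrays limits the precision. Duplicate spots were averaged, and each probe was fitted in limma 3.58.1 (R 4.3.3) on all 15 arrays with group and slide, followed by eBayes. Probes tested were well above background on every array of either group compared (28101 for TGFß1 against controls). A gene is its probe of highest mean signal, named through RefSeq accessions (GRCm38.p6 tables, with 29686 of 29937 mRNA and 2499 of 2556 non-coding accessions matched). Of 56605 probes 33767 got a gene name in this way. The others entered the probe counts but no gene count or list. Of the 28101 probes tested 8474 had no name, with 636 of them called higher and 768 lower. A fold is a lower bound where a whole group was not well above background.

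The labels number the arrays 1 to 15 and each run of 5 numbers holds every group once, but they do not say what a run is. Deviations of control and TGFß1 arrays from the fit with group and slide correlated at 0.292 to 0.494 within a run and at -0.35 to 0.086 between runs.

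The 66 gene lists and 16 symbol classes, of whose 2162 genes 2148 are on the array, were chosen with earlier results of these data known. The rule for named genes took a fixed set of pathway genes and, in each list with at least 3 called members, the 2 largest rises and falls of the same direction within each slide, 200 genes in all. A few of these results are not reported here. Other genes in the text were chosen after their values were seen. The fit was tested on simulated data. Alternatives changed the slide term, the arrays in the fit, the scaling, background correction, filters, thresholds and the probe of a gene, and left out each array in turn.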

Additional observations from a re-analysis of the deposited data

How the results depend on the processing

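For TGFß1 against controls the probe counts were 1098 higher and 1541 lower at a fold-change of at least 2 and 5905 and 4509 with no fold threshold. With normexp background correction 1704 were lower in place of 2919. Leaving out 1 array gave 1861 to 3198 higher and 2100 to 3221 lower, the smallest counts without control 6. Scaling by the median moved the median of all probes to 0.14. For TGFß1 against TNFα (1739 higher and 2178 lower) normexp gave 1244 lower, and leaving out 1 array 1540 to 1724 higher and 1860 to 2136 lower. For TGFß1 against IL-1β (2679 and 3052) median scaling gave 4429 higher, the percentile over detected probes 1784 higher and normexp 1583 lower, and leaving out 1 array 1928 to 2954 and 2348 to 3245. For TGFß1 against IL-6 with sIL-6Rα (2674 and 2813) normexp gave 1655 lower, and leaving out 1 array 1867 to 2891 and 2208 to 2915. The cause of these shifts was not tested, except that the thresholds count by construction. The labels give the groups no shared replicate number. A fit with the runs of label numbers as replicate block beside the slide gave 3161 probes higher and 3261 lower, with 2857 and 2894 of the calls shared. Of 318 called genes that the rule or the text names, 219 kept their call in every setting and 235 whenever 1 array was left out, and no result changed direction past its threshold. Normexp ended the calls of *Smad9*, *Itga3*, *Gpc6*, *Omd*, *Tnfaip3* and *Oas3*. The list medians of matrix glycoproteins (0.01) and protease inhibitors (0.02) turned positive without the filter on dim probes, and that of the circadian clock without TGFß1 7 (0.09) and without the slide (0.04). These are not all: other medians near 0 reached 0 or changed sign as well. Among them were the matrix-degrading proteases and the mesenchymal transcription factors (8 settings each). The BMP and activin list and the other collagens did so in 6 settings each, and the Hedgehog list in 5.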
